A study of Mus musculus with 24 samples.

Results

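The sustained response of itaconate-deficient macrophages to bacterial lipopolysaccharide (LPS) was described from 6 of the 24 RNA-seq libraries of the series. The members were the 3 Irg1-/- cultures left without LPS (Unstim.) and the 3 Irg1-/- cultures harvested after 24 h with 100 ng/ml LPS (LPS 24h), chosen by the genotype and treatment in their labels. All were bone marrow-derived macrophages (BMDMs) of Irg1-/- mice on the C57BL/6N strain, aged 8 to 20 weeks per the labels, differentiated for 7 days with 20 ng/ml M-CSF, the growth factor that drives marrow cells to become macrophages. The LPS 24h cells were collected directly after the 24 h, with no rest and no renewed LPS. For reference the text also uses Irg1-/- cultures after 3 h of LPS (LPS 3h, 3 libraries), which were first kept without LPS and then had their medium changed and a rest, and WT cultures left unstimulated or given LPS for 24 h (3 libraries each). The WT mice were C57BL/6N animals bought from a breeder and are not described as littermates. The labels number separate cultures, but do not say whether these came from separate mice, so p-values measure the spread between cultures.

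LPS is sensed by Toll-like receptor 4, which signals through the adaptors MyD88 and TRIF to the NF-kappaB, AP-1 and interferon regulatory transcription factors. The early wave of cytokine genes is followed by a later programme, in which secreted type I interferon induces antiviral genes and in which feedback inhibitors lower the response of the cell to LPS. Acod1, which the study calls Irg1, encodes the mitochondrial enzyme that makes itaconate from the TCA cycle intermediate cis-aconitate and is itself among the genes that LPS induces in macrophages. The comparison gives the transcript state after prolonged LPS in cells without this enzyme.

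Levels are given as normalized CPM, which are reads on a gene scaled to a common library size (CPM) and corrected by edgeR's TMM factors. Between 3927378 and 20430359 reads per library fell on genes in the 6 libraries, and the unstimulated group held the smallest of these. The target gene Acod1 (chromosome 14, 103046977 to 103056573, plus strand, GRCm38, ENSMUSG00000022126.6 in the count table) had 7.8, 11.9 and 9.63 normalized CPM in Unstim. and 11.5, 8.2 and 6.54 after LPS 24h in Irg1-/- cells, and its log2 fold change was -0.16 ± 0.47 (SE, adjusted p = 0.883). In WT cells it had 9.4, 5.82 and 10.0 normalized CPM without LPS and 3793, 4013 and 5797 after LPS 24h, so the induction was absent in the libraries labelled Irg1-/-. The macrophage genes Adgre1 (F4/80), Csf1r (the M-CSF receptor) and Lyz2 (lysozyme) were abundant in all 6 libraries, at 381 normalized CPM or more for Adgre1, while Cd3e of T cells was at 0 counts in every library. Neutrophil genes were present in small amounts and were lower after LPS 24h: the 10 listed genes summed to 506 to 797 normalized CPM in Unstim. and 199 to 280.3 after LPS 24h, and 5 of 9 tested (Retnlg, Ltf, Ngp, Camp and S100a9) fell. Lists of other cell types were low: 5.3 to 11.3 normalized CPM in Unstim. and 0.608 to 1.15 after LPS 24h for T and NK cells, nearly all of it Cd4, 8.08 to 12.4 and 3.36 to 4.93 for dendritic cells, 0.936 to 3.1 and 0.425 to 2.03 for B cells, and 3.12 to 4.01 and 2.66 to 3.58 for endothelium. Stromal collagen genes and their companions summed to 272 to 342 and 166 to 192, with Col1a2 lower after LPS 24h (log2 fold change -1.08 ± 0.29, adjusted p = 0.00843). In bulk RNA, fewer cells of a type and less RNA per cell cannot be told apart. The label prefix of each sample was 4 for all Irg1-/- Unstim. libraries and 1 for all Irg1-/- LPS 24h libraries. It was read as the pool in which barcoded cDNAs were amplified together. No source says so, and pool below means this prefix, whatever it stands for. Treatment and pool cannot be told apart within the Irg1-/- libraries. WT LPS 24h libraries were spread over pools 1, 2 and 4 with WT Unstim. in pool 4, which lets a fit carry the pool as a term, and results that change with it are given below.

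After LPS 24h, 868 genes were higher (7.31% of the 11878 tested) and 758 lower (6.38%) than in unstimulated Irg1-/- macrophages, by edgeR's quasi-likelihood test at an adjusted p (Benjamini-Hochberg) under 0.05. These percentages are the background against which the counts of each gene list below are read. The median change among the called genes was 1.85 on the log2 scale for the higher and 1.89 for the lower ones, and 148 higher and 100 lower genes changed by 4 or more log2 units. Values after ± are standard errors (SE) unless stated otherwise. They were derived from the test, as the absolute log2 fold change over the square root of its F statistic. They are approximate, above all where a group is near 0 counts. The median log2 fold change over all genes tested was -0.0048. With the pool as a term, 610 genes were higher and 532 lower, of which 851 were among the 1626 called without it. An exact permutation test of a single gene between 3 and 3 cultures cannot give a p below 0.1, so only the fitted tests are reported.

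**Figure D1:**
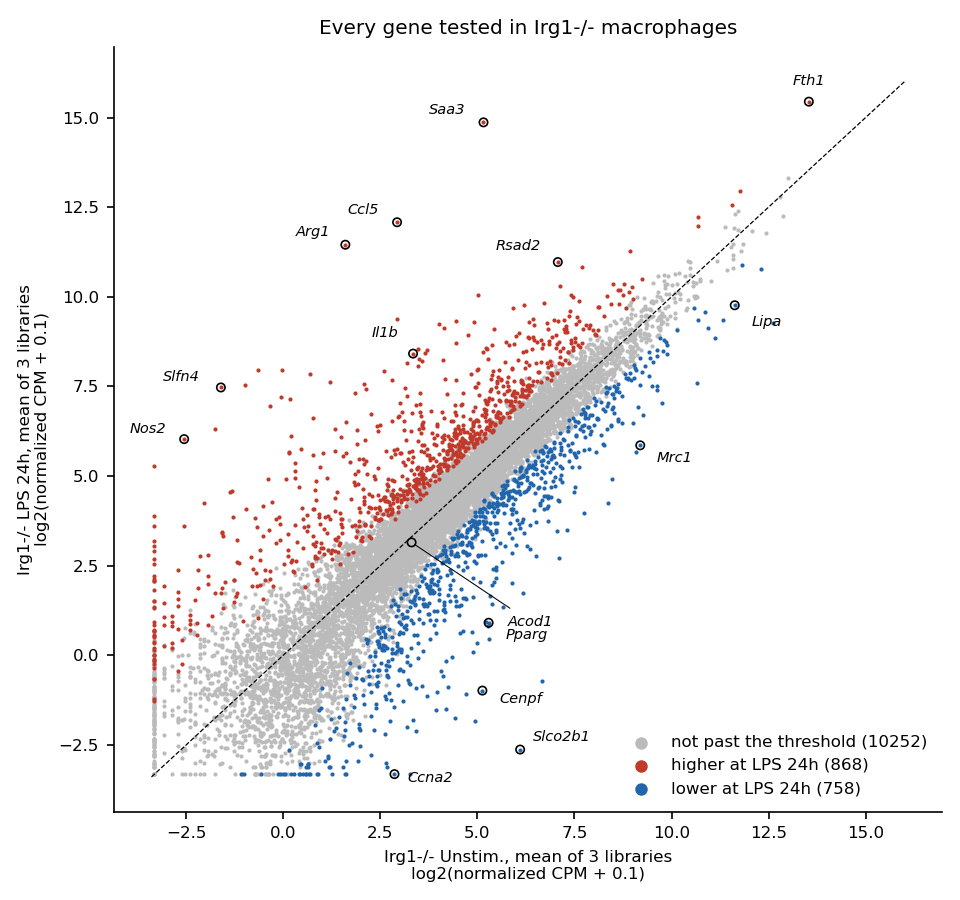
Mean level of each of the 11878 tested genes in the 3 Irg1-/- Unstim. libraries (horizontal axis) and the 3 Irg1-/- LPS 24h libraries (vertical axis), both as log2 of normalized CPM plus 0.1, with 868 higher genes in red, 758 lower genes in blue and the rest in grey. The dashed line marks equal levels: Saa3, Arg1, Ccl5 and Nos2 lie far above it, Slco2b1, Cenpf and Ccna2 far below, and Acod1 on it.

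Saa3, the serum amyloid A made by macrophages and among the 10 largest inductions, had 35.4, 48.1 and 23.2 normalized CPM in Unstim. and 30875, 37276 and 21518 after LPS 24h, log2 fold change 9.72 ± 0.55 (SE, adjusted p = 1.11e-13). Arg1, the arginase that turns arginine into ornithine and urea, had 5.3, 2.07 and 1.39 normalized CPM in Unstim. and 2727, 2838 and 2839 after LPS 24h, log2 fold change 9.97 ± 0.68 (SE, adjusted p = 2.77e-12). Slfn4, a Schlafen family gene of myeloid cells, had 0.468, 0 and 0.214 normalized CPM in Unstim. and 231, 125 and 175 after LPS 24h, log2 fold change 9.51 ± 0.59 (SE, adjusted p = 9.81e-13). In each of these 3 genes the lowest LPS 24h library was far above the highest unstimulated library. Genes named by rank, here and in the lists below, were taken only where the groups did not overlap. Their separation therefore follows from the choice. Among all called genes, 840 of the 868 higher and 721 of the 758 lower ones met this criterion and a minimum mean count. The long non-coding RNA gene U90926 had 0 counts in all Unstim. libraries and 38.5, 45.9 and 32.4 normalized CPM after LPS 24h, at least 97.9-fold higher against a floor of 3 counts per library. Against the same floor, Ly6i, a surface antigen of the Ly6 family, was at least 36.9-fold, Lrrc4 22.4-fold, Saa1 20.4-fold and Pilrb1 18.7-fold higher. Ly6i, Saa1 and Pilrb1 have close relatives in the genome, and reads that matched more than 1 place were not counted on genes, so their levels are uncertain.

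The 10 largest falls were of genes with low or medium levels that were at or near 0 after LPS 24h, apart from Cldn12. Slco2b1, an organic anion transporter, had 31.4, 52.6 and 122 normalized CPM in Unstim. and 0, 0.140 and 0.0425 after LPS 24h, with a pooled ratio of 0.000630 (95% counting interval 0.000130 to 0.00184). Nptx1, a pentraxin, had 6.71, 10.6 and 11.3 normalized CPM in Unstim. and 0 counts after LPS 24h, at least 52.8-fold lower. Myb, a transcription factor of blood progenitors, was at 0 counts after LPS 24h against 2.5, 3.77 and 2.68 normalized CPM before, at least 16.5-fold lower, and so were BC106179 (at least 16.1-fold), Gabbr2 (at least 12.7-fold) and Lrfn4 (at least 9.64-fold). Zbtb16, a transcription factor of innate-like lymphocytes and progenitors, had 1.87, 5.09 and 11.7 normalized CPM in Unstim. and 0, 0 and 0.0425 after LPS 24h. Cd28, a costimulatory receptor best known from T cells, had 8.89, 5.65 and 3.85 normalized CPM in Unstim. and 0, 0.0701 and 0 after LPS 24h. Cldn12, a claudin, had 0.780, 1.7 and 303 normalized CPM in Unstim. and 0.676, 0.420 and 0.425 after LPS 24h: a single unstimulated library carried nearly all of its reads, and without that library its log2 fold change was -1.25 (adjusted p = 0.596). With the pool as a term, BC106179 (1) and Zbtb16 (0.133) did not pass, with the adjusted p in brackets.

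**Figure D2:**
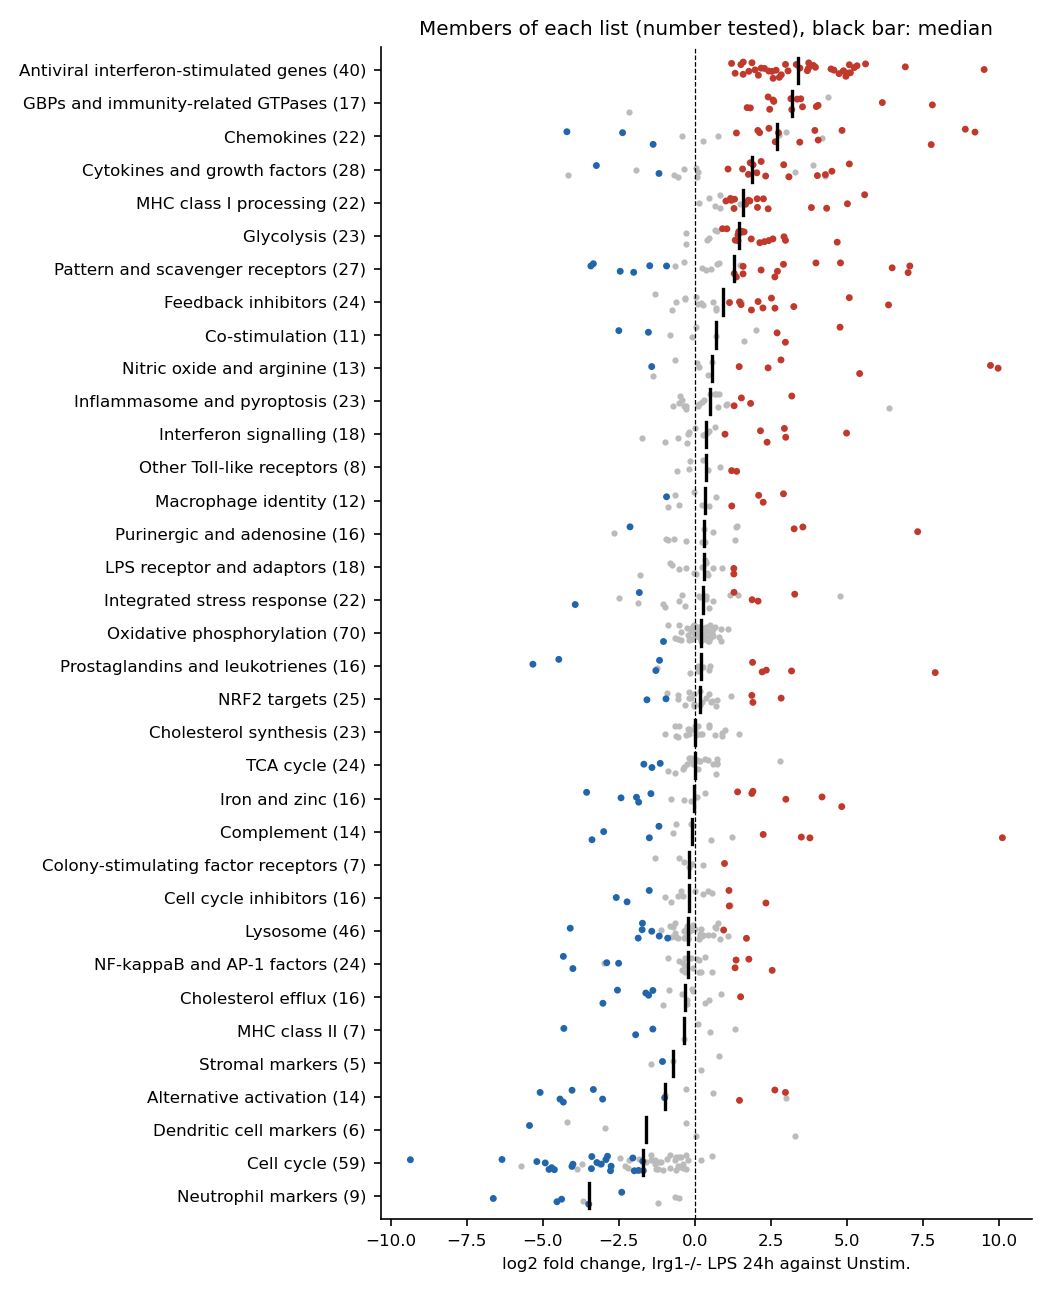
Log2 fold change of Irg1-/- LPS 24h against Unstim. (horizontal axis) for each tested member of the gene lists with 5 or more tested members (rows, number tested in brackets), in red or blue where the member passed the threshold and grey where it did not, with a black bar at the list's median. The antiviral interferon-stimulated genes are all red, glycolysis lies to the right of 0 in most members, and cell cycle genes lie to the left.

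Of the cytokine and growth factor genes, 14 of 28 tested members were higher and 2 lower after LPS 24h (median log2 fold change 1.86). Il1b, which encodes the precursor of the inflammasome product interleukin-1 beta, had 12.8, 6.97 and 10.3 normalized CPM in Unstim. and 299.6, 399 and 324 after LPS 24h, log2 fold change 5.08 ± 0.36 (SE, adjusted p = 5.61e-12). Il1rn, the antagonist of the same receptor, had 13.9, 35.2 and 15.6 normalized CPM in Unstim. and 532, 355 and 371 after LPS 24h, log2 fold change 4.29 ± 0.38 (SE, adjusted p = 5.12e-10). The 2 groups did not overlap for either gene. Tnf, the gene of tumour necrosis factor, had 7.96, 5.65 and 2.78 normalized CPM in Unstim. and 23.6, 23.1 and 13.1 after LPS 24h, log2 fold change 1.91 ± 0.37 (SE, adjusted p = 0.000339). Il1a rose by 3.09 ± 0.41 and Il12b, the shared subunit of interleukins 12 and 23, by 1.82 ± 0.47. Il6 was near its detection limit, with 0.156, 0.188 and 0 normalized CPM in Unstim. and 1.01, 1.47 and 2.8 after LPS 24h, and its pooled ratio was 29.5 (95% counting interval 7.95 to 247). Il10, the anti-inflammatory cytokine, had 0.624, 0 and 0.535 normalized CPM in Unstim. and 2.84, 1.26 and 1.44 after LPS 24h, log2 fold change 2.03 ± 0.65 (SE, adjusted p = 0.0321). The members that fell encode growth factors. Pdgfb, a platelet-derived growth factor subunit, had 115, 54.3 and 62.2 normalized CPM in Unstim. and 9.12, 9.25 and 6.11 after LPS 24h (log2 fold change -3.24 ± 0.43, adjusted p = 1.15e-06). Csf1, which encodes M-CSF itself, had 75.5, 42 and 97 normalized CPM in Unstim. and 32.9, 37.8 and 24.1 after LPS 24h (log2 fold change -1.18 ± 0.36, adjusted p = 0.0223). Both groups were separate for each of them. The calls on Csf1 (0.0949) and Tnf (0.106) were lost with the pool as a term, adjusted p in brackets. Leaving out 1 library ended the call on Csf1 (Unstim. replicates 1 and 3 or LPS 24h replicates 1 and 3: adjusted p 0.0594 to 0.138), Il10 (Unstim. replicates 1, 2 and 3 or LPS 24h replicate 1: adjusted p 0.0541 to 0.161) and Il12b (Unstim. replicate 3: adjusted p 0.0648).

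Chemokine genes, whose products recruit leukocytes, moved in both directions: 13 of 22 tested members were higher and 3 lower after LPS 24h (median log2 fold change 2.70). Ccl5, which attracts T cells and monocytes, had 8.11, 10.7 and 3.69 normalized CPM in Unstim. and 4862, 4699 and 3419 after LPS 24h, log2 fold change 9.21 ± 0.59 (SE, adjusted p = 1.00e-12). Cxcl9, a ligand of CXCR3 on activated T cells, had 1.25, 0 and 0.375 normalized CPM in Unstim. and 261, 101 and 388 after LPS 24h, log2 fold change 8.89 ± 0.61 (SE, adjusted p = 3.14e-12). The groups did not overlap for Ccl5 and Cxcl9. Cxcl5, a neutrophil attractant, was at 0 counts in Unstim. and had 2.43, 4.7 and 0.0849 normalized CPM after LPS 24h, at least 6.04-fold higher, with the level set by 2 of the 3 libraries. The monocyte attractants Ccl2, Ccl7 and Ccl12 rose by 3.45 ± 0.46, 2.64 ± 0.32 and 3.94 ± 0.41 on the log2 scale. Ccl3 and Ccl4, which are strong early LPS genes, did not pass at 24 h. Ccl3 had 30.4, 27.1 and 12.8 normalized CPM in Unstim. and 45.4, 40.3 and 31.3 after LPS 24h (log2 fold change 0.74 ± 0.32, adjusted p = 0.132), and Ccl4 had 39.2, 40.7 and 16.6 normalized CPM in Unstim. and 47.7, 35.4 and 31.9 after LPS 24h (log2 fold change 0.26 ± 0.31, adjusted p = 0.671), with overlap of the groups for Ccl4 alone. Ccl6 and Ccl9, chemokines of resting macrophages, fell by 2.38 ± 0.31 and 1.38 ± 0.32, and Cx3cl1, at 2.5 normalized CPM or less in every library, had a log2 fold change of -4.21 ± 1.44. Cx3cl1 did not pass with the pool as a term (adjusted p = 0.0702). The call was lost without 1 library for Cx3cl1 (Unstim. replicates 1 and 2 or LPS 24h replicates 1, 2 and 3: adjusted p 0.0515 to 0.182).

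Promoter windows from RefSeq (build GRCm38.p6, 250 bases before to 50 bases after a transcript start) were searched on both strands for short motifs. Windows on a chromosome set aside from printing count in the shares, but not where genes with a motif are ranked by their change. The kappaB motif GGANTTTCC, the kind of element that NF-kappaB binds, was in 4 of 14 windows of the 14 chemokine genes that had a window (28.6%), against 1.25% of all 32851 windows. This list and motif were picked because their share relative to all windows was the highest among lists with enough windows. The motif was also in 4 of 23 cytokine windows (17.4%), 2 of 15 of the LPS receptor and adaptors (13.3%) and 0 of 35 of glycolysis. The interferon-stimulated response element, described below, was in as many chemokine windows (4 of 14). The 2 chemokine genes with the motif that rose most were Cxcl3 and Cxcl1, neutrophil attractants that are neighbours on chromosome 5. Cxcl3 had 2.18, 0 and 0.321 normalized CPM in Unstim. and 13.5, 16.4 and 7.85 after LPS 24h (log2 fold change 4.05 ± 0.67, adjusted p = 3.64e-05). Cxcl1 had 2.81, 0.754 and 1.87 normalized CPM in Unstim. and 12.4, 20.0 and 5.18 after LPS 24h (log2 fold change 2.75 ± 0.51, adjusted p = 0.000177). No LPS 24h library of Cxcl3 and Cxcl1 lay within the range of the unstimulated ones. Their windows, chr5:90785851-90786150 and chr5:90890995-90891294 on the plus strand, are printed 5′ to 3′ to show where the motif lies, which is in capitals at -72 to -64 and -70 to -62 relative to the transcript start (its base is +1). A match is a description of the letters and does not show that a factor is bound.
Cxcl3: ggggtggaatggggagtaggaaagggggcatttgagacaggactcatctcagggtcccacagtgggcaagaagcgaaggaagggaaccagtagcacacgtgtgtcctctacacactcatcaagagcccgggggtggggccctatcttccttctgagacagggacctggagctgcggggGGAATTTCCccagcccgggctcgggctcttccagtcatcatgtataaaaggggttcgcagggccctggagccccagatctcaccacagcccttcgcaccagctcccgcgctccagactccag
Cxcl1: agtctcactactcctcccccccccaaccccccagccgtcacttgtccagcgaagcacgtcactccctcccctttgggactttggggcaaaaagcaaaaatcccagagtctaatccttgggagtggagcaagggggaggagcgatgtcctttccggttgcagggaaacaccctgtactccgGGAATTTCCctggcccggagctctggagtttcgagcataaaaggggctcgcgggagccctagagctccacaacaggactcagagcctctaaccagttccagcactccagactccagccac

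All tested antiviral interferon-stimulated genes rose: 40 of 40 tested members were higher and 0 lower after LPS 24h (median log2 fold change 3.39). They block viral entry, copying or translation or sense viral RNA and DNA. Rsad2, which encodes viperin, had 122, 152 and 129.9 normalized CPM in Unstim. and 2414, 1490.1 and 2107 after LPS 24h, log2 fold change 3.90 ± 0.38 (SE, adjusted p = 3.80e-09). Isg15, a ubiquitin-like modifier, had 2.34, 2.07 and 1.39 normalized CPM in Unstim. and 53.9, 59.1 and 36.3 after LPS 24h, log2 fold change 4.74 ± 0.37 (SE, adjusted p = 4.17e-11). For Rsad2 and Isg15, the LPS 24h libraries lay outside the unstimulated range. Oasl1, of the oligoadenylate synthetase family, and Slfn1 rose by 5.61 ± 0.44 and 6.92 ± 0.50, and the smallest change in the list was 1.20 for Ifi203. In the fit with the pool as a term 38 of the 40 were higher, and in each fit without 1 library all 40 were. Members of the Ifit, Oas, Ifi200 and Schlafen families resemble each other, so their single levels are uncertain.

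The interferon-stimulated response element, searched as GAAANNGAA, was in 22 of 38 windows of the 32 matched antiviral genes (57.9%) and in 10 of 12 windows of the guanylate-binding protein and immunity-related GTPase genes (83.3%), against 8.56% of all windows. Its letters can overlap a gamma-activated site, searched as TTCNNNGAA. Ifi205, a DNA sensor family gene, and Ifit3b, a translation inhibitor family gene, were the antiviral genes with the motif in a window that rose most. Ifi205 had 1.56, 0.754 and 1.5 normalized CPM in Unstim. and 50.4, 45.3 and 65.7 after LPS 24h (log2 fold change 5.33 ± 0.52, adjusted p = 3.35e-09). Ifit3b had 0.780, 0.565 and 0.161 normalized CPM in Unstim. and 19.9, 12.8 and 9.64 after LPS 24h (log2 fold change 5.08 ± 0.60, adjusted p = 1.66e-07). Unstimulated and LPS 24h libraries were separate for Ifi205 and Ifit3b. Their windows, chr1:174031706-174032005 on the minus strand and chr19:34607707-34608006 on the plus strand, are shown with each match in capitals, at -134 to -126 and +25 to +33 for Ifi205 and -187 to -179, -153 to -145 and -134 to -126 for Ifit3b. Matches on the opposite strand appear as their reverse complement. These printed windows were chosen after the motif shares were seen.
Ifi205: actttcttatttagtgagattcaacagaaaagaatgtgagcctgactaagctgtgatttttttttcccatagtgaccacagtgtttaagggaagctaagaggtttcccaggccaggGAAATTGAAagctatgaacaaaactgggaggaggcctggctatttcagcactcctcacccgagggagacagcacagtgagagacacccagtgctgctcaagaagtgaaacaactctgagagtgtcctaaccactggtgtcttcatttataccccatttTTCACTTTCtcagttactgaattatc
Ifit3b: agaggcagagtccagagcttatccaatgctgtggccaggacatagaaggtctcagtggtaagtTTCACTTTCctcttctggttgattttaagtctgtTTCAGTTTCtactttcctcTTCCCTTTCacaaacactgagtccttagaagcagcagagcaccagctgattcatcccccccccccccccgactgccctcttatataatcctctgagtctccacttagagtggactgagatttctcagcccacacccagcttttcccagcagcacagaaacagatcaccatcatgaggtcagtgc

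The components that carry the interferon signal moved less evenly: 6 of 18 tested members were higher and 0 lower after LPS 24h (median log2 fold change 0.36). Irf7, the interferon regulatory factor that amplifies type I interferon production, had 17, 21.1 and 14.9 normalized CPM in Unstim. and 689, 577 and 408 after LPS 24h, log2 fold change 4.99 ± 0.44 (SE, adjusted p = 5.61e-10). Stat2, a transcription factor below the interferon receptors, rose by 2.94 ± 0.40. Irf3, Irf5, Irf9, Jak1 and Tyk2 did not pass, with log2 fold changes from -0.25 to 0.33. Ifnb1, the interferon beta gene, had 4 reads in the LPS 24h libraries together and 0 in Unstim., too few to compare. For the guanylate-binding proteins and immunity-related GTPases, which act on vacuoles that hold pathogens, 15 of 17 tested members were higher and 0 lower after LPS 24h (median log2 fold change 3.18). Gbp2 had 11.5, 5.65 and 9.63 normalized CPM in Unstim. and 188, 110.4 and 149.7 after LPS 24h, log2 fold change 4.05 ± 0.36 (SE, adjusted p = 5.45e-10). In Irf7 and Gbp2 the libraries of the 2 groups were apart. Gbp6 was at 0 counts in Unstim. and at least 6.17-fold higher after LPS 24h, and Tgtp2 had a pooled ratio of 88.4 (95% counting interval 15.6 to 3515), both from few reads.

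Antigen presentation genes divided by class. For class I, the pathway that shows peptides from inside the cell, 16 of 22 tested members were higher and 0 lower after LPS 24h (median log2 fold change 1.58). Among them the peptide transporter gene Tap1 had 22.6, 27.7 and 15 normalized CPM in Unstim. and 113, 112 and 83.5 after LPS 24h, log2 fold change 2.25 ± 0.39 (SE, adjusted p = 7.51e-05), and the immunoproteasome genes Psmb8 and Psmb9 rose by 2.06 ± 0.31 and 1.81 ± 0.32. The non-classical gene H2-Q7 had 6.4, 10.4 and 9.36 normalized CPM in Unstim. and 236, 196 and 96.3 after LPS 24h. H2-T23, another non-classical gene, had 0.156, 3.02 and 0.214 normalized CPM in Unstim. and 4.87, 79.6 and 7.81 after LPS 24h, with LPS 24h replicate 2 far above the other libraries. H2 genes are close copies of each other and their counts are uncertain. For class II, which shows peptides from outside, 0 of 7 tested members were higher and 3 lower after LPS 24h (median log2 fold change -0.37, but -1.40 with the pool as a term, 0.18 without Unstim. replicate 1, -0.19 without LPS 24h replicate 2 and 0.00 without LPS 24h replicate 3). The fits without 1 library tested 8 class II members in place of 7, so their medians do not cover the same genes. Ciita, the class II transactivator, had 1.72, 4.52 and 2.46 normalized CPM in Unstim. and 0, 0.280 and 0.127 after LPS 24h (log2 fold change -4.31 ± 1.13, adjusted p = 0.00739). H2-Eb1, a class II chain, had 15.3, 17.7 and 14 normalized CPM in Unstim. and 4.46, 4.77 and 2.93 after LPS 24h (log2 fold change -1.95 ± 0.44, adjusted p = 0.00188). H2-Aa, another chain, had 34.3, 39.8 and 18 normalized CPM in Unstim. and 13.5, 13.7 and 7.94 after LPS 24h (log2 fold change -1.39 ± 0.44, adjusted p = 0.0302). The ranges of the 2 groups were separate in Ciita, H2-Eb1 and H2-Aa. Cd74, the invariant chain gene, did not pass (log2 fold change -0.37 ± 0.36, adjusted p = 0.58). Without LPS 24h replicate 1, 1 of the class II members was lower. Adding the pool as a term ended the call on Ciita (adjusted p = 0.152). In fits without 1 library, the call was lost for Ciita (LPS 24h replicate 1: adjusted p 0.0514) and H2-Aa (Unstim. replicates 1 and 2 or LPS 24h replicates 1 and 3: adjusted p 0.0626 to 0.156). Tap1, Psmb8 and Psmb9 were named after their values had been seen.

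In the co-stimulation list, 3 of 11 tested members were higher and 2 lower after LPS 24h (median log2 fold change 0.69, but 1.19 with the pool as a term, 0.34 without Unstim. replicate 2 and 0.24 without LPS 24h replicate 2). Cd274, which encodes the checkpoint ligand PD-L1, had 11.1, 13.6 and 13 normalized CPM in Unstim. and 221, 189 and 619.7 after LPS 24h, log2 fold change 4.77 ± 0.46 (SE, adjusted p = 3.77e-09). Cd40, the receptor for T cell help, had 5.62, 0.565 and 4.17 normalized CPM in Unstim. and 31.1, 28.4 and 25.1 after LPS 24h, log2 fold change 2.97 ± 0.41 (SE, adjusted p = 2.12e-06). Every LPS 24h library of Cd274 and Cd40 was outside the range of the unstimulated libraries. Cd200, an inhibitory ligand, rose by 2.70 ± 0.40. Cd83 fell from 18.9, 15.3 and 13.7 to 3.85, 2.87 and 1.74 normalized CPM (log2 fold change -2.50 ± 0.40, adjusted p = 2.24e-05), and Havcr2, the checkpoint receptor TIM-3, had a log2 fold change of -1.53 ± 0.42. Cd80 and Cd86, the ligands of CD28, did not pass (log2 fold changes 0.69 and -0.10). With the pool as a term, Havcr2 did not pass (adjusted p = 0.191). Leaving out 1 library ended the call on Havcr2 (Unstim. replicate 1 or LPS 24h replicate 1: adjusted p 0.0642 to 0.0688).

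Of the LPS receptor and its adaptors, 2 of 18 tested members were higher and 0 lower after LPS 24h (median log2 fold change 0.30, but 0.10 with the pool as a term). Tlr4 had 43.4, 54.6 and 26.5 normalized CPM in Unstim. and 18.3, 16.6 and 38.6 after LPS 24h (log2 fold change -0.75 ± 0.37, adjusted p = 0.2) and the groups overlapped. The adaptor Myd88 had 37.4, 33.5 and 46.3 normalized CPM in Unstim. and 149.7, 75.3 and 60.5 after LPS 24h (log2 fold change 1.28 ± 0.33, adjusted p = 0.00629). The kinase Ikbke had 30.4, 21.3 and 22.4 normalized CPM in Unstim. and 59.2, 67.2 and 53.3 after LPS 24h (log2 fold change 1.28 ± 0.30, adjusted p = 0.00291). The groups did not overlap for Myd88 and Ikbke. Of the other Toll-like receptors, 2 of 8 tested members were higher and 0 lower after LPS 24h (median log2 fold change 0.35, but 0.64 without Unstim. replicate 1): Tlr3, the receptor of double-stranded RNA, had a log2 fold change of 1.37 ± 0.38 and Tlr1 of 1.21 ± 0.37. The calls on Ikbke (0.346), Myd88 (0.283) and Tlr1 (0.64) were lost with the pool as a term, adjusted p in brackets. The call was lost without 1 library for Myd88 (LPS 24h replicate 1: adjusted p 0.128), Tlr3 (Unstim. replicate 1 or LPS 24h replicate 1: adjusted p 0.0558 to 0.0676) and Tlr1 (Unstim. replicates 2 and 3 or LPS 24h replicates 1 and 2: adjusted p 0.0649 to 0.127).

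Of the feedback inhibitors of LPS and cytokine signalling, 11 of 24 tested members were higher and 0 lower after LPS 24h (median log2 fold change 0.91). Socs3, which blocks JAK kinases below cytokine receptors, had 0.624, 2.45 and 3.53 normalized CPM in Unstim. and 241, 195 and 150.3 after LPS 24h, log2 fold change 6.37 ± 0.48 (SE, adjusted p = 2.27e-11). Its relative Socs1 had 0.156, 0.188 and 0.375 normalized CPM in Unstim. and 10.1, 12 and 7.73 after LPS 24h, log2 fold change 5.08 ± 0.54 (SE, adjusted p = 1.90e-08). Irak3, a kinase-like protein that restrains Toll-like receptor signalling, had 24.2, 36.4 and 64.5 normalized CPM in Unstim. and 265, 228 and 706 after LPS 24h, log2 fold change 3.25 ± 0.42 (SE, adjusted p = 6.48e-07). No LPS 24h library of Socs3, Socs1 and Irak3 lay within the range of the unstimulated ones. Tnfaip3, which encodes the deubiquitinase A20, did not pass (log2 fold change 0.19 ± 0.41, adjusted p = 0.826). Of a joint list of NF-kappaB subunits, AP-1 factors and immediate early factors, 4 of 24 tested members were higher and 4 lower after LPS 24h (median log2 fold change -0.23, but -0.01 with the pool as a term). Batf rose by 2.54 ± 0.55, while Egr2 fell from 13.9, 6.78 and 7.22 to 0.608, 0.841 and 0 normalized CPM (log2 fold change -4.33 ± 0.80, adjusted p = 0.00018) and Myc, the growth-promoting factor, from 7.33, 9.99 and 5.51 to 0.608, 0.491 and 0.297 (log2 fold change -4.02 ± 0.65, adjusted p = 2.62e-05). Egr1 had a log2 fold change of -2.90 ± 0.44, and Nfkb1 and Rela, core NF-kappaB subunits, did not pass (-0.42 and 0.15). The list had 2 members higher and 3 lower in the fit with the pool as a term.

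Inflammasomes are complexes that sense danger in the cytosol and activate caspase-1, which matures interleukin-1 beta and cuts gasdermin D into a pore-forming fragment. In this list 4 of 23 tested members were higher and 0 lower after LPS 24h (median log2 fold change 0.50, but 0.27 without LPS 24h replicate 3). Nlrp3, the sensor, had 27, 22.4 and 28.4 normalized CPM in Unstim. and 34, 41 and 35.3 after LPS 24h (log2 fold change 0.50 ± 0.41, adjusted p = 0.502). Casp1, the protease, had 59.6, 81.2 and 141 normalized CPM in Unstim. and 269, 86.2 and 224 after LPS 24h (log2 fold change 1.04 ± 0.37, adjusted p = 0.0631). Gsdmd, the pore former, had 25.6, 19.8 and 14.9 normalized CPM in Unstim. and 39.5, 39.9 and 25.1 after LPS 24h (log2 fold change 0.80 ± 0.30, adjusted p = 0.0763). The groups overlapped for Casp1 and Gsdmd, and for Nlrp3 the LPS 24h libraries were only slightly above the unstimulated ones. Pycard, the adaptor ASC, also did not pass (log2 fold change 0.23 ± 0.27, adjusted p = 0.67). The members that rose were other sensors and partners. Mefv, the gene of pyrin, had 1.09, 0.377 and 2.51 normalized CPM in Unstim. and 11.7, 14.4 and 15.7 after LPS 24h (log2 fold change 3.19 ± 0.53, adjusted p = 3.77e-05). Casp4, the murine caspase-11 gene that senses cytosolic LPS, had 29.9, 16 and 17.4 normalized CPM in Unstim. and 75.6, 80.0 and 69.5 after LPS 24h (log2 fold change 1.83 ± 0.30, adjusted p = 2.80e-05). Pstpip1, a partner of pyrin, rose by 1.53 ± 0.35 and Naip2, a sensor of bacterial secretion systems, by 1.29 ± 0.28. Naip2 did not pass with the pool as a term (adjusted p = 0.0959).

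In arginine and nitric oxide metabolism, 6 of 13 tested members were higher and 1 lower after LPS 24h (median log2 fold change 0.56, but 0.84 without Unstim. replicate 2 and 0.26 without LPS 24h replicate 2). Nos2, the inducible nitric oxide synthase, had 0.156, 0 and 0.0535 normalized CPM in Unstim. and 61.2, 37.3 and 96.9 after LPS 24h, which rests on 2 reads in Unstim. and gives a pooled ratio of 1075 (95% counting interval 297 to 8876). Slc7a2, the arginine transporter that feeds both Nos2 and Arg1, had 4.68, 0.754 and 5.03 normalized CPM in Unstim. and 116, 73.3 and 284 after LPS 24h, log2 fold change 5.42 ± 0.62 (SE, adjusted p = 9.01e-08). Ass1, which recycles citrulline to arginine, rose by 2.83 ± 0.92, Arg2 by 2.41 ± 0.47, and Gch1, which starts synthesis of the Nos2 cofactor tetrahydrobiopterin, by 1.45 ± 0.39. Qdpr, which regenerates that cofactor, fell from 41.6, 44.9 and 19.7 to 14.1, 16.3 and 9.17 normalized CPM (log2 fold change -1.42 ± 0.34, adjusted p = 0.00316). Calls that did not hold with the pool as a term were Ass1 (0.346) and Gch1 (0.361), adjusted p in brackets. In fits without 1 library, the call was lost for Ass1 (Unstim. replicates 1 and 2 or LPS 24h replicates 1 and 3: adjusted p 0.0731 to 0.126) and Gch1 (Unstim. replicate 3: adjusted p 0.0636). Arg1 and Nos2, whose enzymes use the same amino acid, were both among the 10 largest inductions.

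**Figure D3:**
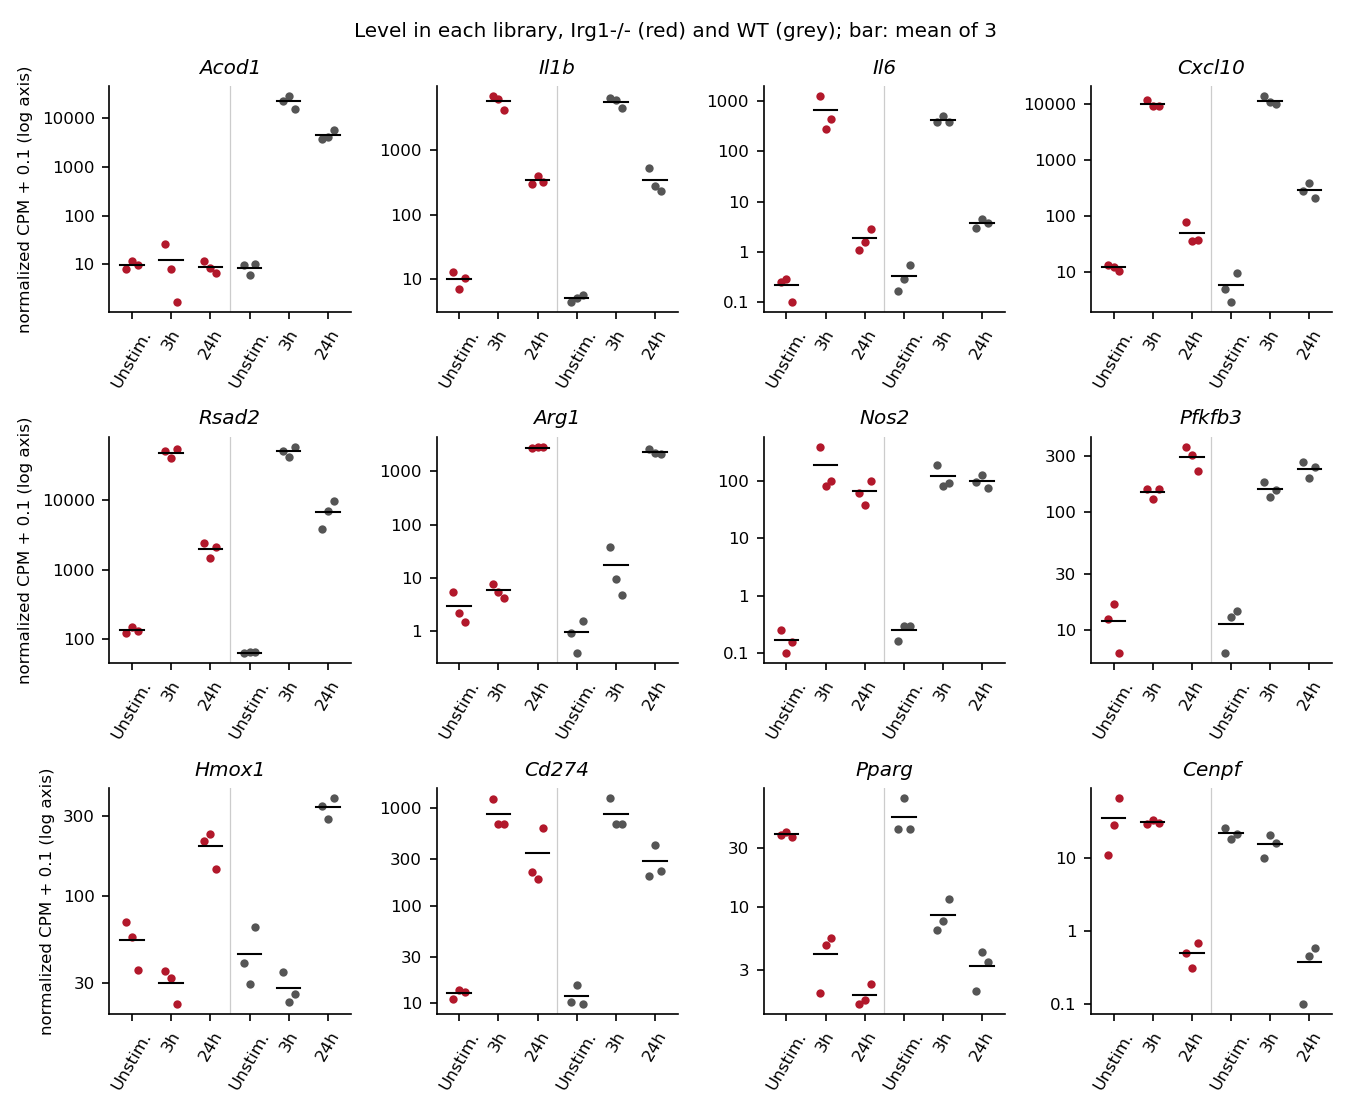
Normalized CPM plus 0.1 on a log axis (vertical) for 12 genes in each library of Irg1-/- (red) and WT (grey) macrophages that were unstimulated or had LPS for 3 h or 24 h (horizontal), with a bar at the mean of the 3 libraries. Acod1 stays near its unstimulated level in the Irg1-/- libraries, Il1b, Il6, Cxcl10 and Rsad2 peak at 3 h, Arg1 and Hmox1 are high at 24 h, and Pparg and Cenpf are lowest at 24 h.

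Glycolysis genes, which encode the steps from glucose to lactate, rose as a group: 17 of 23 tested members were higher and 0 lower after LPS 24h (median log2 fold change 1.44). Pfkfb3, which makes the activator of phosphofructokinase, had 12.3, 16.6 and 6.26 normalized CPM in Unstim. and 354, 307 and 225 after LPS 24h, log2 fold change 4.68 ± 0.37 (SE, adjusted p = 4.31e-11). Hk2, a hexokinase, had 40.6, 35.8 and 40.2 normalized CPM in Unstim. and 284, 274 and 361 after LPS 24h, log2 fold change 2.98 ± 0.29 (SE, adjusted p = 3.82e-09). For Pfkfb3 and Hk2, the LPS 24h libraries lay outside the unstimulated range. Slc16a3, the lactate exporter, had 12.9, 13 and 10.1 normalized CPM in Unstim. and 105, 103 and 65.1 after LPS 24h, log2 fold change 2.93 ± 0.32 (SE, adjusted p = 4.41e-08). The glucose transporter gene Slc2a1 rose by 2.56 ± 0.34. In the fit with the pool as a term the list had 6 members higher and 0 lower, with a median of 1.00. In WT cells, where a library of the same pool as the unstimulated ones exists, the list median was 1.02 log2 units above Unstim. in that library. It was 2.03 and 1.69 in the other WT LPS 24h libraries. The same-pool library, WT LPS 24h replicate 3, stood apart on a principal component. It also had the lowest mitochondrial share of all 24 libraries (0.709%), so its pool and its other properties cannot be told apart.

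Of the TCA cycle list, 0 of 24 tested members were higher and 3 lower after LPS 24h (median log2 fold change 0.00). Idh1, the cytosolic isocitrate dehydrogenase, had 267, 258 and 126 normalized CPM in Unstim. and 67.5, 80.8 and 54.6 after LPS 24h (log2 fold change -1.68 ± 0.32, adjusted p = 0.000264). Suclg2, a succinyl-CoA ligase subunit, had 36.7, 51.3 and 62.5 normalized CPM in Unstim. and 12, 21.2 and 23.2 after LPS 24h (log2 fold change -1.42 ± 0.30, adjusted p = 0.00105). Fh1, fumarate hydratase, had 25.6, 22 and 15.6 normalized CPM in Unstim. and 8.11, 13.7 and 6.75 after LPS 24h (log2 fold change -1.14 ± 0.36, adjusted p = 0.0292). Unstimulated and LPS 24h libraries were separate for Idh1, Suclg2 and Fh1. The succinate dehydrogenase genes Sdha, Sdhb, Sdhc and Sdhd did not pass (log2 fold changes -0.27 to 0.60). The sign of the TCA cycle median turned with the scaling, to -0.05 with DESeq2's size factors. Of the oxidative phosphorylation genes, 0 of 70 tested members were higher and 1 lower after LPS 24h (median log2 fold change 0.20), and the member was Ndufb11 (log2 fold change -1.04 ± 0.35, adjusted p = 0.0411). Its median turned to -0.58 in the fit with the pool as a term, with 0 members higher and 2 lower. With the pool as a term, Fh1 did not pass (adjusted p = 0.0816). Leaving out 1 library ended the call on Fh1 (Unstim. replicates 1 and 2 or LPS 24h replicates 1 and 3: adjusted p 0.0597 to 0.163) and Ndufb11 (Unstim. replicates 1 and 2 or LPS 24h replicates 1, 2 and 3: adjusted p 0.0676 to 0.138).

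NRF2 is the transcription factor of the response to electrophiles and oxidants, and itaconate derivatives are known to activate it. The paper also cites earlier work in which itaconate made by activated macrophages themselves triggered NRF2 and ATF3 responses. Its own experiments report effects on NRF2 and ATF3, detected as protein, when itaconate was added to LPS-activated Irg1-/- macrophages. The values here are RNA, from cells without added itaconate. In the NRF2 target list, 3 of 25 tested members were higher and 2 lower after LPS 24h (median log2 fold change 0.17, but 0.01 without LPS 24h replicate 2). Hmox1, heme oxygenase 1, had 69.6, 56.7 and 36 normalized CPM in Unstim. and 213, 235 and 144 after LPS 24h, log2 fold change 1.87 ± 0.37 (SE, adjusted p = 0.000419). Slc7a11, the cystine importer, had 10.5, 5.46 and 6.64 normalized CPM in Unstim. and 58.5, 48.4 and 53.9 after LPS 24h, log2 fold change 2.84 ± 0.34 (SE, adjusted p = 1.91e-07). Fth1, the ferritin heavy chain, was the most abundant member, with 14957, 12994 and 7751 normalized CPM in Unstim. and 44807, 49957 and 39037 after LPS 24h (log2 fold change 1.91 ± 0.30, adjusted p = 1.46e-05). Nqo1, a classical NRF2 target, had 2.5, 2.64 and 2.09 normalized CPM in Unstim. and 2.57, 4.63 and 2.17 after LPS 24h (log2 fold change 0.38 ± 0.73, adjusted p = 0.808), and the groups overlapped. The glutathione synthesis genes Gclc and Gclm had log2 fold changes of -0.55 and -0.56 that did not pass. Cat, catalase, fell from 335, 269.9 and 166 to 99.3, 99.1 and 59.3 normalized CPM (log2 fold change -1.58 ± 0.38, adjusted p = 0.00326). Nfe2l2, the gene of NRF2 itself, had a log2 fold change of -0.95 ± 0.33. The median of the list turned to -0.18 in the fit with the pool as a term. The call on Nfe2l2 was lost with the pool as a term (adjusted p = 0.232). The call was lost without 1 library for Nfe2l2 (Unstim. replicates 2 and 3 or LPS 24h replicates 1 and 2: adjusted p 0.138 to 0.239).

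Of the integrated stress response, the programme of the factor ATF4, 4 of 22 tested members were higher and 2 lower after LPS 24h (median log2 fold change 0.26, but 0.10 without Unstim. replicate 3). Nupr1 had 5.46, 2.45 and 4.39 normalized CPM in Unstim. and 51.5, 34 and 36 after LPS 24h, log2 fold change 3.28 ± 0.45 (SE, adjusted p = 1.62e-06). Mthfd2, of mitochondrial folate metabolism, rose by 2.08 ± 0.33, Atf4 by 1.88 ± 0.47 and Ddit3, which encodes CHOP, by 1.29 ± 0.28. The serine synthesis genes Phgdh and Psat1 were lower (log2 fold changes -3.94 ± 1.22 and -1.83 ± 0.53), Phgdh from a level of 1.87 normalized CPM or less in every library. Atf3, a stress-induced repressor that itaconate and its derivatives are reported to trigger, had 190.0, 354 and 224 normalized CPM in Unstim. and 432, 237 and 325 after LPS 24h (log2 fold change 0.37 ± 0.29, adjusted p = 0.472), and the groups overlapped. The median of the list turned to -0.28 in the fit with the pool as a term. Without LPS 24h replicate 1, 3 members were higher and 0 lower, and 0 were lower without LPS 24h replicate 3. Phgdh did not pass with the pool as a term (adjusted p = 0.0664). In fits without 1 library, the call was lost for Phgdh (Unstim. replicate 3 or LPS 24h replicates 1 and 3: adjusted p 0.119 to 0.148), Psat1 (Unstim. replicate 1 or LPS 24h replicates 1 and 3: adjusted p 0.0554 to 0.0766) and Atf4 (LPS 24h replicate 1: adjusted p 0.209).

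Genes of lipid mediators moved in both directions: 5 of 16 tested members were higher and 4 lower after LPS 24h (median log2 fold change 0.19, but 0.54 without Unstim. replicate 1 and -0.05 without LPS 24h replicate 2). Ptges, the inducible prostaglandin E synthase, had 0, 0 and 0.589 normalized CPM in Unstim. and 110.2, 73.7 and 56 after LPS 24h, log2 fold change 7.90 ± 0.54 (SE, adjusted p = 2.93e-12). Ptgs2, the inducible cyclooxygenase, had 11.9, 6.78 and 6.31 normalized CPM in Unstim. and 43.4, 60.5 and 22.2 after LPS 24h, log2 fold change 2.35 ± 0.43 (SE, adjusted p = 0.000175). In Ptges and Ptgs2 the libraries of the 2 groups were apart. Pla2g7, which degrades platelet-activating factor, rose by 3.18 ± 0.33. Ptgs1, the constitutive cyclooxygenase, fell from 98.4, 59.5 and 57.9 to 2.16, 4.63 and 2.89 normalized CPM (log2 fold change -4.48 ± 0.47, adjusted p = 1.38e-08). Hpgd, which inactivates prostaglandins, fell from 27.6, 13.2 and 15.4 to 0.541, 0.140 and 0.637 (log2 fold change -5.33 ± 0.61, adjusted p = 1.50e-07). Hpgds, the prostaglandin D synthase of hematopoietic cells, fell by 1.29 ± 0.31. The median of the list turned to -0.18 in the fit with the pool as a term. Adding the pool as a term ended the call on Hpgds (adjusted p = 0.23). Leaving out 1 library ended the call on Hpgds (Unstim. replicate 3: adjusted p 0.0584).

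Of the iron and zinc genes, 6 of 16 tested members were higher and 5 lower after LPS 24h (median log2 fold change -0.02, but -0.62 with the pool as a term, 0.17 without Unstim. replicate 1, 0.01 without Unstim. replicate 3 and 0.13 without LPS 24h replicate 3). Slc40a1, the iron exporter ferroportin, had 407, 357 and 303 normalized CPM in Unstim. and 33.3, 27.2 and 29.6 after LPS 24h, log2 fold change -3.56 ± 0.30 (SE, adjusted p = 2.76e-10). Tfrc, the transferrin receptor that imports iron, had a log2 fold change of -1.92 ± 0.45. Cp, the ferroxidase ceruloplasmin, had 15.6, 11.1 and 12.2 normalized CPM in Unstim. and 360.3, 339 and 406 after LPS 24h, log2 fold change 4.83 ± 0.34 (SE, adjusted p = 5.35e-12). Lcn2, which withholds iron from bacteria, had 30.3, 31.3 and 19.1 normalized CPM in Unstim. and 573, 455 and 427 after LPS 24h, log2 fold change 4.18 ± 0.37 (SE, adjusted p = 6.29e-10). The ranges of the 2 groups were separate in Slc40a1, Cp and Lcn2. Lcn2 is also made by neutrophils, whose listed markers were lower after LPS 24h. Slc39a14, a zinc and iron importer, rose by 2.99 ± 0.51 and the zinc exporter Slc30a1 fell by 2.43 ± 0.42. With the pool as a term, Tfrc did not pass (adjusted p = 0.239). Of the purinergic and adenosine genes, 3 of 16 tested members were higher and 1 lower after LPS 24h (median log2 fold change 0.31, but 0.12 with the pool as a term). Cd38, which consumes NAD, had 0.156, 3.02 and 1.34 normalized CPM in Unstim. and 198, 272 and 224 after LPS 24h, log2 fold change 7.33 ± 0.50 (SE, adjusted p = 2.77e-12). Gpr84, a receptor of medium-chain fatty acids, rose by 3.55 ± 0.51. Entpd1, the ATP-degrading ectoenzyme CD39, had 125, 115 and 187 normalized CPM in Unstim. and 67.4, 18.2 and 11.9 after LPS 24h (log2 fold change -2.14 ± 0.41, adjusted p = 0.000293). Of the complement genes, 4 of 14 tested members were higher and 4 lower after LPS 24h (median log2 fold change -0.09, but -0.44 with the pool as a term, 0.07 without Unstim. replicate 1 and 0.04 without LPS 24h replicate 3). C3, the central component, had 10.6, 8.1 and 15.5 normalized CPM in Unstim. and 175, 161 and 143 after LPS 24h, log2 fold change 3.78 ± 0.33 (SE, adjusted p = 5.12e-10). C5ar2, a receptor of C5a, had 88.3, 83.7 and 71.7 normalized CPM in Unstim. and 6.56, 9.18 and 7.52 after LPS 24h, log2 fold change -3.39 ± 0.35 (SE, adjusted p = 1.12e-08). Every LPS 24h library of C3 and C5ar2 was outside the range of the unstimulated libraries. Cfb, factor B, was at 0 counts in Unstim. and 5.07, 0.280 and 30.8 normalized CPM after LPS 24h, at least 30.3-fold higher with most of the signal in replicate 3.

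Uptake and pattern receptors moved in both directions: 13 of 27 tested members were higher and 6 lower after LPS 24h (median log2 fold change 1.29, but 0.30 with the pool as a term and 0.79 without LPS 24h replicate 3). Marco, a scavenger receptor for bacteria, had 0.780, 0 and 1.82 normalized CPM in Unstim. and 162, 164 and 113 after LPS 24h, log2 fold change 7.07 ± 0.61 (SE, adjusted p = 3.78e-10). Fpr2, a receptor of formylated bacterial peptides, had 9.98, 6.41 and 5.94 normalized CPM in Unstim. and 631, 762 and 596 after LPS 24h, log2 fold change 6.49 ± 0.43 (SE, adjusted p = 1.86e-12). Its relative Fpr1 had 0, 0.188 and 1.87 normalized CPM in Unstim. and 107, 114 and 150.0 after LPS 24h, log2 fold change 7.01 ± 0.62 (SE, adjusted p = 5.12e-10). The groups did not overlap for Marco, Fpr2 and Fpr1. Clec7a, the beta-glucan receptor Dectin-1, fell from 290.3, 332 and 998 to 42.9, 70.2 and 38.1 normalized CPM (log2 fold change -3.42 ± 0.56, adjusted p = 3.20e-05). Mrc1, the mannose receptor, fell from 277, 595 and 886 to 48.7, 48.1 and 76.4 (log2 fold change -3.34 ± 0.42, adjusted p = 4.12e-07). Axl, a receptor for apoptotic cells, fell from 57.9, 40.0 and 35.3 to 10.9, 6.87 and 6.45 (log2 fold change -2.46 ± 0.41, adjusted p = 4.56e-05).

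Of the genes of alternative activation, the state driven by interleukin-4, 3 of 14 tested members were higher and 7 lower after LPS 24h (median log2 fold change -0.99). Pparg, a nuclear receptor of lipid metabolism, had 38.8, 40.9 and 37.1 normalized CPM in Unstim. and 1.49, 1.61 and 2.21 after LPS 24h, log2 fold change -4.44 ± 0.45 (SE, adjusted p = 6.50e-09). Clec10a, a lectin, had 4.21, 6.6 and 3.96 normalized CPM in Unstim. and 0.270, 0 and 0.127 after LPS 24h, log2 fold change -5.09 ± 1.21 (SE, adjusted p = 0.00308). No LPS 24h library of Pparg and Clec10a lay within the range of the unstimulated ones. Members that rose were Il4ra, the interleukin-4 receptor (log2 fold change 2.98 ± 0.34, adjusted p = 8.87e-08), the scavenger receptor Msr1 (2.63 ± 0.37) and Tgm2, a transglutaminase (1.46 ± 0.37). Arg1, often used as a marker of this state, was counted with arginine metabolism. Of the macrophage identity genes, 4 of 12 tested members were higher and 1 lower after LPS 24h (median log2 fold change 0.34, but 0.15 with the pool as a term and 0.52 without Unstim. replicate 3): Fcgr1, a high-affinity antibody receptor, rose by 2.91 ± 0.36, Itgam, CD11b, by 2.24 ± 0.42 and Aif1 by 2.10 ± 0.35, and Mertk, a receptor for apoptotic cells, had a log2 fold change of -0.93 ± 0.27. Among the colony-stimulating factor receptors, 1 of 7 tested members were higher and 0 lower after LPS 24h (median log2 fold change -0.18, but -0.83 with the pool as a term), the member being Csf3r (0.94 ± 0.29), and Csf1r did not pass (log2 fold change -0.53 ± 0.35, adjusted p = 0.377). The calls on Tgm2 (0.515), Clec10a (0.0556), Csf3r (0.154) and Mertk (0.113) were lost with the pool as a term, adjusted p in brackets. The call was lost without 1 library for Csf3r (Unstim. replicates 1 and 2 or LPS 24h replicates 1 and 3: adjusted p 0.0613 to 0.121) and Mertk (Unstim. replicate 2 or LPS 24h replicates 1 and 2: adjusted p 0.0507 to 0.148).

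Many cell cycle genes fell: 0 of 59 tested members were higher and 22 lower after LPS 24h (median log2 fold change -1.72). Ccna2, cyclin A2, had 6.24, 7.35 and 7.92 normalized CPM in Unstim. and 0 counts after LPS 24h, at least 39.8-fold lower against the floor of 3 counts. Cenpf, a kinetochore protein of dividing cells, had 10.9, 28.5 and 65.2 normalized CPM in Unstim. and 0.406, 0.210 and 0.594 after LPS 24h, log2 fold change -6.35 ± 0.80 (SE, adjusted p = 4.33e-07). Ube2c, which helps to degrade cyclins, had 1.09, 3.96 and 4.82 normalized CPM in Unstim. and 0, 0.210 and 0.0425 after LPS 24h (log2 fold change -5.20 ± 1.23, adjusted p = 0.00321). Top2a, the topoisomerase of replicating DNA, had 26, 40.3 and 83.4 normalized CPM in Unstim. and 6.96, 3.85 and 6.88 after LPS 24h, log2 fold change -3.08 ± 0.44 (SE, adjusted p = 3.71e-06). For Cenpf, Ube2c and Top2a, the LPS 24h libraries lay outside the unstimulated range. Mki67, the proliferation marker, had 9.83, 28.6 and 53.8 normalized CPM in Unstim. and 16, 5.61 and 19.1 after LPS 24h (log2 fold change -1.19 ± 0.53, adjusted p = 0.147), with overlap. The licensing genes Mcm2, Mcm3, Mcm4, Mcm5 and Mcm6 did not pass (-1.44 to -0.53). In the fit with the pool as a term 10 of the 59 were lower with a median of -1.55, and in WT cells the list median was -1.27 in the LPS library of the same pool as Unstim., which stood apart on a principal component. The neutrophil genes and Myb moved in the same direction, and their part in this result was not tested. Ube2c did not pass with the pool as a term (adjusted p = 0.0521).

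Of the cell cycle inhibitors, 3 of 16 tested members were higher and 3 lower after LPS 24h (median log2 fold change -0.20, but 0.02 without Unstim. replicate 1, -0.43 without Unstim. replicate 2, 0.12 without Unstim. replicate 3, -0.04 without LPS 24h replicate 1 and -0.42 without LPS 24h replicate 3), and 2 members higher and 0 lower in the fit with the pool as a term. Without Unstim. replicate 2 or LPS 24h replicate 2, 1 member was lower. Cdkn1a, which encodes the cyclin-dependent kinase inhibitor p21, had 562, 354 and 547 normalized CPM in Unstim. and 1771, 2352 and 3258 after LPS 24h, log2 fold change 2.33 ± 0.38 (SE, adjusted p = 3.44e-05). Cdkn1c, a relative of p21, fell from 16.4, 16.6 and 23.1 to 3.31, 3.36 and 2.67 normalized CPM (log2 fold change -2.59 ± 0.48, adjusted p = 0.00017). Adding the pool as a term ended the call on Cdkn1c (adjusted p = 0.107). The cell cycle homology region, searched as TTTGAA, was in 26 of 51 promoter windows of the cell cycle list (51%) against 17.9% of all windows, and the CCAAT box in 39 (76.5%) against 37.4%. Cenpf was the most lowered of the genes that hold the former in a window. Its window, chr1:189688037-189688336 on the minus strand, is shown with the match in capitals at +3 to +8.
Cenpf: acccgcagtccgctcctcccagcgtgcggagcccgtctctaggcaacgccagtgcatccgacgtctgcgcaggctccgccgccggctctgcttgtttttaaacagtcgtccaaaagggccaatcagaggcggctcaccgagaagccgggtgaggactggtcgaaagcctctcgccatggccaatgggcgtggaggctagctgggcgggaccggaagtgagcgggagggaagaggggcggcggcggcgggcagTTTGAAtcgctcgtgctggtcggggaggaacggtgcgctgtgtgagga

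In cholesterol synthesis, 0 of 23 tested members were higher and 0 lower after LPS 24h (median log2 fold change 0.01, but -0.20 with the pool as a term and -0.11 without Unstim. replicate 3), by edgeR's test, with 3 at an unadjusted p under 0.05 and 1 called by DESeq2's Wald test. Of the efflux and lipid storage genes, 1 of 16 tested members were higher and 5 lower after LPS 24h (median log2 fold change -0.34, but -0.66 without Unstim. replicate 2). Mylip, which degrades the LDL receptor, had 786, 479 and 565 normalized CPM in Unstim. and 119, 101 and 92.9 after LPS 24h, log2 fold change -2.55 ± 0.29 (SE, adjusted p = 6.35e-08). Cyp27a1, which makes an oxysterol, had 39.5, 63.5 and 29.6 normalized CPM in Unstim. and 5.75, 5.96 and 4.5 after LPS 24h, log2 fold change -3.03 ± 0.51 (SE, adjusted p = 5.10e-05). Unstimulated and LPS 24h libraries were separate for Mylip and Cyp27a1. Nr1h3, the oxysterol receptor LXR alpha, rose by 1.50 ± 0.33, while Abca1, its target at the cell surface, did not pass (log2 fold change 0.47 ± 0.30, adjusted p = 0.348). Of the lysosomal genes, 2 of 46 tested members were higher and 7 lower after LPS 24h (median log2 fold change -0.22, but -0.58 with the pool as a term). Atp6v0d2, a macrophage subunit of the lysosomal proton pump, had 302, 288 and 389.7 normalized CPM in Unstim. and 26.9, 17.7 and 12.5 after LPS 24h, log2 fold change -4.10 ± 0.41 (SE, adjusted p = 5.05e-09). Lipa, the lysosomal lipase, fell from 3533, 1795 and 4178 to 983, 807 and 816 normalized CPM (log2 fold change -1.87 ± 0.31, adjusted p = 4.58e-05). Ctsc, cathepsin C, rose by 1.69 ± 0.28. Without LPS 24h replicate 3, 4 lysosomal genes were lower. With the pool as a term, Nr1h3 did not pass (adjusted p = 0.138).

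The 24 h state was then set against Irg1-/- macrophages after 3 h of LPS, to show how the later state differs from the early one. At 24 h, 2159 genes were higher (18.2% of those tested) and 2003 lower (16.9%) than at 3 h. The median over all genes was 0.1521 and moved with DESeq2's size factors, to 0.05, so that small differences depend on the scaling. A fit with the pool as a term gave 674 higher and 1097 lower genes. The Irg1-/- 3 h libraries had other label prefixes, here read as pools, than the 24 h ones. Cytokines had 1 higher and 25 lower of 28 (median -4.50), chemokines 1 higher and 16 lower of 22 (median -3.30) and feedback inhibitors 0 higher and 21 lower of 24 (median -2.50). Il1b had 6743, 6154 and 4150.1 normalized CPM at 3 h, against 299.6, 399 and 324 at 24 h, log2 fold change -4.06 ± 0.34 (SE, adjusted p = 8.31e-11). Cxcl10 had 11893, 9231 and 9083 normalized CPM at 3 h and 79.3, 35.7 and 38 at 24 h, log2 fold change -7.63 ± 0.46 (SE, adjusted p = 1.27e-13). Tnf had 1938, 2238 and 1758 normalized CPM at 3 h and 23.6, 23.1 and 13.1 at 24 h. For these 3 genes the 24 h libraries lay between the unstimulated and the 3 h ones.

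Antiviral interferon-stimulated genes had 2 higher and 28 lower of 40 (median -1.64) from 3 h to 24 h, and all 40 were still above Unstim. at 24 h by the test above. Glycolysis went the other way, with 14 higher and 4 lower of 23 (median 1.22), and inflammasome genes had 9 higher and 3 lower of 23 (median 0.67). Arg1 had 7.72, 5.4 and 4.04 normalized CPM at 3 h and 2727, 2838 and 2839 at 24 h, log2 fold change 8.91 ± 0.65 (SE, adjusted p = 4.78e-12). Hmox1 had 35.3, 32.1 and 22.3 normalized CPM at 3 h, below its unstimulated level, and 213, 235 and 144 at 24 h, log2 fold change 2.72 ± 0.38 (SE, adjusted p = 1.58e-06). Cell cycle genes had 1 higher and 24 lower of 59 (median -1.48). Nlrp3 had 1358, 2444 and 1177 normalized CPM at 3 h and 34, 41 and 35.3 at 24 h, log2 fold change -5.50 ± 0.49 (SE, adjusted p = 3.39e-10), and its 24 h level did not pass against Unstim.

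**Figure D4:**
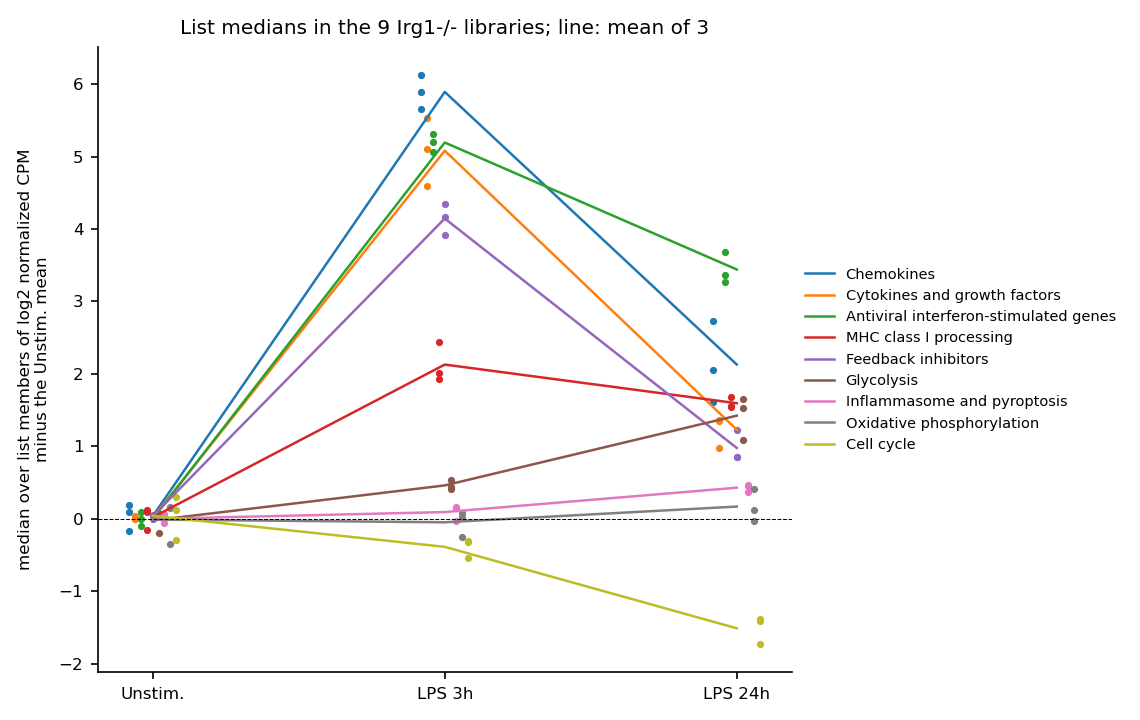
Median over the members of 9 gene lists of log2 normalized CPM minus the mean of the Irg1-/- Unstim. libraries (vertical axis), for each of the 9 Irg1-/- libraries at Unstim., LPS 3h and LPS 24h (horizontal axis), with a line through the mean of 3 libraries. Chemokines, cytokines and feedback inhibitors peak at 3 h and are lower at 24 h, glycolysis is highest at 24 h, and cell cycle genes are lowest at 24 h.

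The same comparison in WT macrophages called 1099 genes higher (9.25%) and 829 lower (6.98%). Of the 868 genes higher in Irg1-/- cells, 630 (72.6% of these and 57.3% of the WT ones) were also called higher in WT, and of the 758 lower genes 471 (62.1% and 56.8%) were also called lower. A call in only 1 genotype does not show a difference, which was tested directly as the Irg1-/- response minus the WT response. By that test 22 genes had a lower value in Irg1-/- cells (0.185% of those tested) and 3 a higher value (0.0253%), and 967 genes had an unadjusted p under 0.05. The target gene Acod1 had the smallest p, with a difference of -9.22 ± 0.75 (SE, adjusted p = 2.41e-09). The lists, set side by side with the Irg1-/- values given above, had in WT macrophages 40 higher and 0 lower of 40 with a median of 4.01 for antiviral genes, 15 higher and 2 lower of 22 with a median of 4.26 for chemokines, 16 higher and 0 lower of 23 with a median of 1.61 for glycolysis, 1 higher and 17 lower of 59 with a median of -1.23 for the cell cycle, 7 higher and 1 lower of 25 with a median of 0.25 for NRF2 targets and 5 higher and 1 lower of 23 with a median of 0.61 for inflammasome genes.

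Chemokine genes made up 7 of these: Ccl2, Ccl4, Ccl7, Ccl12, Cxcl2, Cxcl10 and Cxcl11, of 22 chemokine genes tested, had a lower response in Irg1-/- than in WT macrophages, against 0.185% of all genes. Ccl12 had 1.72, 2.83 and 1.66 normalized CPM in Irg1-/- Unstim., 33.9, 30.7 and 28 in Irg1-/- LPS 24h, 0.0644, 0.0954 and 0.439 in WT Unstim. and 76.5, 104 and 52.7 in WT LPS 24h, a difference of -4.41 ± 0.62 (SE, adjusted p = 0.000339). The WT Unstim. values of Ccl12 come from few reads, near the floor of 3 counts per library, so the size of its difference is uncertain. Cxcl10, an interferon-inducible ligand of CXCR3, had 13.4, 12.4 and 10.7 normalized CPM in Irg1-/- Unstim., 79.3, 35.7 and 38 in Irg1-/- LPS 24h, 4.96, 2.86 and 9.55 in WT Unstim. and 288, 391 and 209 in WT LPS 24h, a difference of -3.58 ± 0.51 (SE, adjusted p = 0.000339). Its unstimulated level was higher and its LPS 24h level lower in Irg1-/- cells, without overlap in either. Ccl2, the main monocyte attractant, had 4.37, 17 and 8.45 normalized CPM in Irg1-/- Unstim., 153, 91 and 77.2 in Irg1-/- LPS 24h, 2.32, 6.01 and 2.58 in WT Unstim. and 298, 518 and 370.4 in WT LPS 24h, a difference of -3.34 ± 0.62 (SE, adjusted p = 0.00958). For Ccl7 and Cxcl2 the differences were -2.79 ± 0.44 (SE, adjusted p = 0.00124) and -2.29 ± 0.43 (SE, adjusted p = 0.00958). The Ccl12, Ccl2 and Cxcl10 levels after LPS 24h were lower in every Irg1-/- library than in every WT library. These genes were chosen by the test on the same libraries, so such separation between genotypes follows in part from the choice.

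Among the antiviral genes 2 of 40 differed. Rsad2 had 122, 152 and 129.9 normalized CPM in Irg1-/- Unstim., 2414, 1490.1 and 2107 in Irg1-/- LPS 24h, 62.7, 64.1 and 64.2 in WT Unstim. and 3866, 7044 and 9748 in WT LPS 24h, a difference of -2.86 ± 0.49 (SE, adjusted p = 0.0038). Isg15 had 2.34, 2.07 and 1.39 normalized CPM in Irg1-/- Unstim., 53.9, 59.1 and 36.3 in Irg1-/- LPS 24h, 1.16, 0.668 and 0.731 in WT Unstim. and 141, 128 and 166 in WT LPS 24h, a difference of -2.64 ± 0.49 (SE, adjusted p = 0.00958). Both rose in each genotype, and the median difference of the list was -0.74, beside -0.0322 over all genes tested. Pdgfb had 115, 54.3 and 62.2 normalized CPM in Irg1-/- Unstim., 9.12, 9.25 and 6.11 in Irg1-/- LPS 24h, 54.3, 53.9 and 46.1 in WT Unstim. and 31, 36.1 and 149.7 in WT LPS 24h, a difference of -3.73 ± 0.58 (SE, adjusted p = 0.000988), with WT LPS 24h replicate 3 above the other WT libraries. Kctd12, an auxiliary subunit gene of receptors that ends 64339 bases before Acod1 on chromosome 14, had 104, 85.2 and 84.4 normalized CPM in Irg1-/- Unstim., 51.4, 47.1 and 78 in Irg1-/- LPS 24h, 51.1, 78.4 and 59.9 in WT Unstim. and 239.6, 238 and 257 in WT LPS 24h, a difference of -2.59 ± 0.47 (SE, adjusted p = 0.00958): it rose in WT and did not pass in Irg1-/- cells. For inflammasome genes, NRF2 targets, glycolysis, oxidative phosphorylation and the cell cycle the median differences were -0.06, -0.30, -0.08, -0.09 and -0.41. They were -1.25 for guanylate-binding proteins and immunity-related GTPases (0 of 17 called), -1.20 for chemokines and -1.02 for co-stimulation (0 of 11 called). For the integrated stress response, MHC class II, cytokines (2 of 28 called) and iron and zinc they were -0.77, -0.77, -0.74 and -0.71. Lists above 0 included other Toll-like receptors (0.29), cholesterol synthesis (0.15) and the TCA cycle (0.05).

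Since the pool differs between treatments, the difference was also taken within pools as mean log2 normalized CPM, with Irg1-/- LPS 24h set against WT LPS 24h replicate 1 (pool 1) and the unstimulated genotypes against each other (pool 4). It was -9.00 for Acod1, -3.99 for Ccl12, -3.80 for Cxcl10, -2.86 for Ccl2, -2.92 for Ccl7, -2.15 for Cxcl2, -2.05 for Rsad2, -2.56 for Isg15, -2.43 for Pdgfb and -2.60 for Kctd12. This rests on a single WT library after LPS and has no test. The Ccl12 value also rests on few WT Unstim. reads. The genes had been chosen by the fitted difference in mostly the same libraries. When the pool was a term 23 genes were called, 18 of them among the 25, and the calls on Cldn12 (0.172), Gm20594 (0.0988), Lhx2 (0.1), Nfib (0.117), Pilrb1 (0.135), Ptgs2 (0.163) and Ube2l6 (0.0921) were lost, adjusted p in brackets. In place of 25, 7 genes were called without WT Unstim. replicate 1, 12 without Irg1-/- LPS 24h replicate 3, 14 without Irg1-/- LPS 24h replicate 2, 16 without Irg1-/- Unstim. replicate 1 and 45 without WT LPS 24h replicate 1. Of the 10 genes above, the call was lost without 1 library for Ccl2 (adjusted p 0.0501 to 0.0587), Cxcl2 (adjusted p 0.0604 to 0.0743) and Kctd12 (adjusted p 0.0548).

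**Figure D5:**
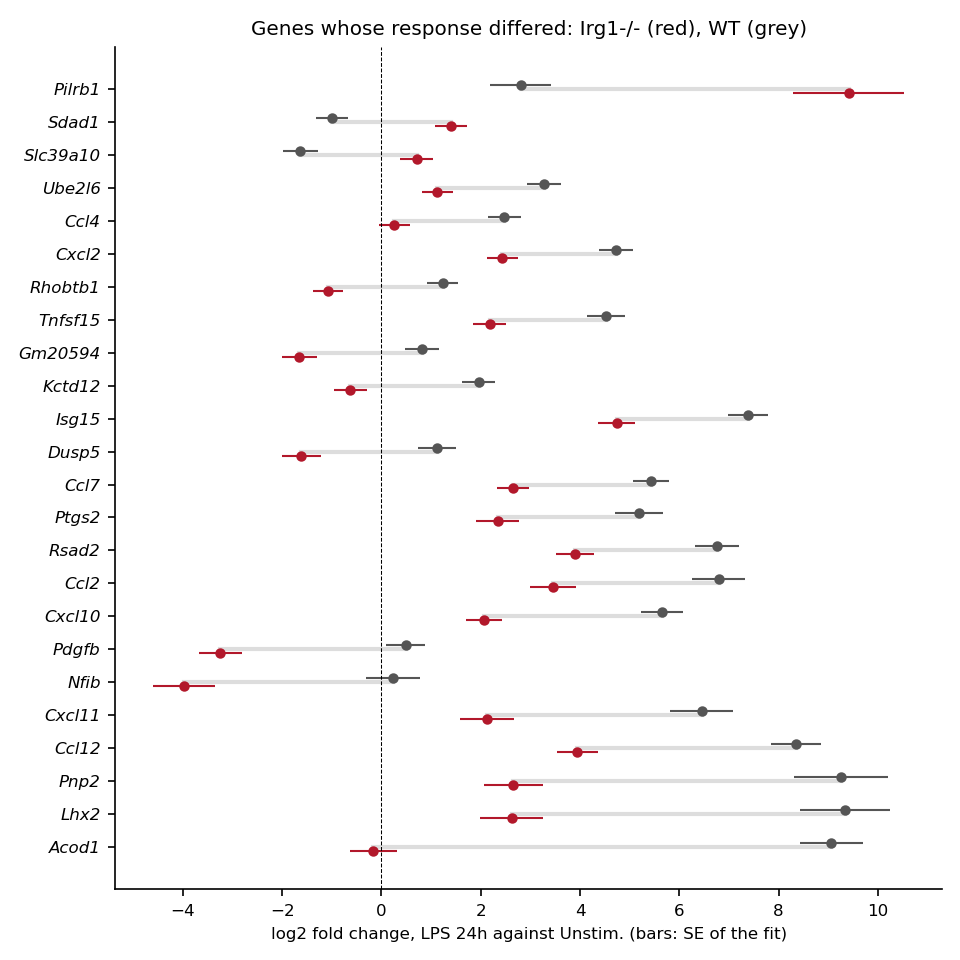
Log2 fold change of LPS 24h against Unstim. with its SE (horizontal axis) in Irg1-/- (red) and WT (grey) macrophages for 24 of the 25 genes whose response differed between genotypes (rows). Cldn12, whose value rests on a single library, is left out, Acod1 shows the widest gap, and Pilrb1, Sdad1 and Slc39a10 are the genes with the higher value in Irg1-/-.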

How the data were processed

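Macrophage RNA was sequenced from the 3' end after oligo-dT priming in barcoded pools without molecular identifiers. The authors aligned reads with STAR to mm10, and the deposited values are raw counts per gene, whose counting program, annotation and strand setting are not given in the sources used here. The 5 summary lines of reads counted on no gene, 44.6 to 50.2% of the total in the 6 libraries, were left out. Genes were named by stable Ensembl identifier (21745 of 22165 matched) and given RefSeq or Ensembl coordinates of GRCm38. All 24 libraries in 8 groups of 3 entered a fit with edgeR 4.0.16 (R 4.3.3): filterByExpr (11878 genes left), TMM factors, glmQLFit and glmQLFTest, Benjamini-Hochberg adjustment over all genes tested and a threshold of 0.05. Normalized CPM were CPM with library sizes from reads on genes multiplied by the TMM factors. The fit was run on simulated counts with known changes and no pool effect, which does not test the overlap of pool and treatment.

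Genes named were Acod1, the 3 highest and 3 lowest members past the threshold in each of 41 lists (groups not overlapping, mean of 10 or more counts in the higher group), the 10 highest and 10 lowest of all genes by the same criteria, the 10 smallest p-values in the difference between genotypes, and Il1b, Tnf, Il6, Il10, Il12b, Nlrp3, Casp1, Gsdmd, Nos2, Hmox1, Nqo1 and Atf3. Il1a, Ccl3, Ccl4, Cxcl1, Cxcl3, Ifi205, Ifit3b, Tap1, Psmb8, Psmb9, Arg2, Ass1, Gch1, Atf4, Naip2, Nfe2l2, Slc2a1, Top2a and Col1a2 were added after their values were seen. Some genes are not reported here. The members and lists were chosen with earlier results of these data known. Ratios of genes with few reads carry exact 95% intervals that cover counting error only. Alternatives were DESeq2 1.42.0 (size factors, Wald test), other filters, the pool, the replicate number, the samples in the fit and leaving out each library.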

Additional observations from a re-analysis of the deposited data

Results flagged for a closer look

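The response to LPS 24h differed between Irg1-/- and WT macrophages for 25 named genes by the test of the difference itself (edgeR's quasi-likelihood test, adjusted p under 0.05), and each is listed for that reason. Values are the Irg1-/- log2 fold change minus the WT one. Beside Acod1 (-9.22), the chemokine genes had differences of -4.41 (Ccl12), -4.32 (Cxcl11), -3.58 (Cxcl10), -3.34 (Ccl2), -2.79 (Ccl7), -2.29 (Cxcl2) and -2.21 (Ccl4). Ccl12 had few reads in WT Unstim., so the size of its difference is uncertain. The interferon-stimulated genes were Rsad2 (-2.86), Isg15 (-2.64) and Ube2l6 (-2.15), the conjugating enzyme of Isg15. Signalling and lipid mediator genes were Pdgfb (-3.73), Ptgs2 (-2.84), Tnfsf15 (-2.35) and Dusp5 (-2.73), a phosphatase of the kinase ERK. Kctd12 (-2.59), Rhobtb1 (-2.32), Gm20594 (-2.47) and the transcription factor gene Nfib (-4.21) also had a lower response. A lower response can hold a higher unstimulated level in Irg1-/- cells, a lower level after LPS 24h, or both. Within pools, log2 levels in Irg1-/- minus WT were 1.89 in Unstim. and -0.19 after LPS 24h for Tnfsf15. They were 1.47 and -0.89 for Rhobtb1, 1.05 and -0.88 for Dusp5, 2.68 and -1.31 for Ccl12 and 1.07 and -0.98 for Rsad2. For Pdgfb they were 0.51 and -1.93. The LPS 24h values rest on WT replicate 1 alone.

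Sdad1 and Slc39a10 went the other way, with differences of 2.38 and 2.34. Slc39a10, a zinc importer, had 38.1, 31.5 and 49.7 normalized CPM in Irg1-/- Unstim., 56.8, 78.4 and 60.7 in Irg1-/- LPS 24h, 42.9, 41.7 and 47.1 in WT Unstim. and 17.5, 12.2 and 12.8 in WT LPS 24h. Sdad1 had 19.3, 15.8 and 20.0 normalized CPM in Irg1-/- Unstim., 32.8, 53.3 and 59.4 in Irg1-/- LPS 24h, 42.6, 35.5 and 37.1 in WT Unstim. and 22.6, 18.7 and 16.8 in WT LPS 24h. In both genes all LPS 24h libraries were above Unstim. in Irg1-/- cells and below Unstim. in WT cells. Both were chosen by the test on these libraries, so this separation follows in part from the choice.

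For Lhx2 (-6.71), Pnp2 (-6.60) and Pilrb1 (6.60) a group of libraries was at 0 counts, so the size is a fitted value and not a measured one. Pilrb1 had 0, 0 and 0 normalized CPM in Irg1-/- Unstim., 8.11, 8.69 and 5.48 in Irg1-/- LPS 24h, 0.515, 1.81 and 0.195 in WT Unstim. and 6.81, 4.11 and 5.82 in WT LPS 24h. Cldn12 (-7.72) rests on Irg1-/- Unstim. replicate 3, at 303 normalized CPM against 0.780 and 1.7 in the other libraries of its group.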

How the results depend on the processing

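In Irg1-/- cells the count of genes changed by LPS 24h stayed within 1.5 times of 1626 under all alternatives but the replicate block with the pool as terms, which gave 694 genes (404 higher, 290 lower, 636 of them shared), and leaving out 1 library gave 1200 to 1526. The count of 25 genes for the difference between genotypes was 89 with DESeq2's Wald test (13 higher, 76 lower), 112 with no filter on low counts (33 higher, 79 lower), 13 when the fit held the compared groups alone, 13 with the replicate block and pool as terms (11 of them shared), 20 without WT LPS 24h replicate 3, which stood apart on a principal component, and 7 to 45 in leaving out 1 library. Against LPS 3h, 1771 genes passed with the pool as a term and 1569 with the replicate block and pool, in place of 4162.

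Replicate numbers gave no uniform sign of pairing. In Irg1-/- cells the correlation of deviations between LPS 24h and Unstim. libraries of the same number was 0.0264, -0.0052 and 0.2072. The last was the highest among the Irg1-/- pairs, but not every library correlated best with its own number. With 3 libraries a group, these correlations cannot exclude pairing. The replicate block alone called 1743 genes in Irg1-/- cells and 28 for the difference between genotypes.

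Of 182 named genes, 61 lost their call under at least 1 alternative, 55 of them with the replicate block and pool as terms, 35 with the pool as a term and 27 without Irg1-/- LPS 24h replicate 1. Of the 25 genes that differed between genotypes, 18 lost their call under at least 1 alternative. Signs turned in 3 genes that were not called: Acod1 (0.13 with the pool, 0.34 with the block and pool, -0.385 to 0.014 in fits without 1 library), Nqo1 (-0.0227 to 0.582 without 1 library) and Ccl4 (-0.0409 to 0.459 without 1 library). List medians near 0 turned for the TCA cycle (-0.223 to 0.0685 over all alternatives, -0.0459 with DESeq2's size factors, -0.0214 with TMM computed without the 20 top genes) and cholesterol synthesis (-0.201 to 0.111, -0.0267 and -0.00370 with the same), and with the pool for oxidative phosphorylation (-0.58), NRF2 targets (-0.18), the integrated stress response (-0.28) and prostaglandins (-0.18). With no filter on low counts they turned for MHC class II (0.0989), cell cycle inhibitors (0.0107) and iron and zinc (0.0933), and with the replicate block and pool as terms for the LPS receptor and adaptors (-0.0380). Medians that moved without 1 library or with the pool stand beside the lists. The cause was not tested.

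Depth limits genes near 3 counts per library, which is 0.127 to 0.565 normalized CPM. Pool and treatment coincide in the Irg1-/- libraries, and the fit with a pool term takes its pool effects from the other groups.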
